A study of Mus musculus with 139 samples.

Results

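The genes described are 8 targets of the transcription factor p53 that act on growth or on the cell cycle: Cdkn1a, Btg2, Plk2, Plk3, Gadd45a, Sfn, Sesn1 and Sesn2. They were chosen by gene name, each has a single entry in all 7 expression tables of the series, and they are 8 of the 52885 genes listed there. All samples derive from AID-FBEXOSC2, a line of mouse embryonic stem cells (ESCs) in which EXOSC2, a core subunit of the RNA exosome, carries an auxin-inducible degron. Addition of 0.5 mM indole-3-acetic acid (IAA), a plant auxin, marks the tagged protein for degradation. Every group below carries this degron, the untreated (0 h) groups included. Cells given IAA without the degron were not analysed here, so loss of EXOSC2 and exposure to IAA cannot be told apart, and the labels do not say whether the line is 1 clone.

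Total RNA of ESCs was measured at 0, 4 and 20 h of IAA. The nascent RNA that a pulse of 5-ethynyluridine (EU, 10 min) marked was sequenced at 0, 1, 2 and 4 h. Cell fractions at 4 and 0 h were the insoluble chromatin fraction (chrRNP), the nucleoplasm (np), the cytosol (cyto) and unfractionated lysate (wcl). The nuclear remnant that the labels name RNPmesh gave polyadenylated RNA at 0, 4 and 12 h. Polyadenylated RNA also came from ESCs kept without LIF in retinoic acid (2 µM) for 24 h, named RAD1, and from ESCs without retinoic acid, named RAD0, both sampled at 0, 4 and 20 h of IAA. Total RNA at 0, 4 and 20 h came from fibroblasts derived from the same ESCs (iMEFs). Each of these groups held 2 libraries, and since the labels do not name separate cultures, p-values measure the spread between libraries that may be technical. A single library was made from each sucrose fraction, F2 to F9, of nuclear lysate at 12 h and at 0 h. For H3K27ac, a histone mark of active promoters and enhancers, the data are 1 list of peaks at 4 h and 1 at 0 h.

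p53 is a transcription factor that is kept low by the ubiquitin ligase Mdm2 and accumulates when cells are stressed. Its targets include genes that stop the cell cycle, genes that promote cell death and genes that feed back on p53 itself. Cdkn1a encodes p21, which inhibits cyclin-dependent kinases, and Btg2 encodes an antiproliferative protein that recruits the CCR4-NOT deadenylase to mRNAs. Plk2 and Plk3 are stress-responsive polo-like kinases, and Plk2 also acts in centriole duplication. Gadd45a binds PCNA and the p21 protein. Sfn, or 14-3-3 sigma, holds cyclin B with Cdk1 in the cytoplasm of human cells. Sesn1 and Sesn2 are sestrins, which bind the GATOR2 complex and restrain the growth kinase mTORC1. In embryonic stem cells p53 is abundant, and the G1 checkpoint that p21 enforces in fibroblasts is weak. On mm10 the files place Cdkn1a at chr17:29090979-29100722, Plk2 at chr13:110395046-110400844 and Sesn1 at chr10:41809935-41908424, all on the plus strand. On the minus strand are Btg2 at chr1:134075170-134079120, Gadd45a at chr6:67035096-67037406, Plk3 at chr4:117128655-117133963, Sesn2 at chr4:132492032-132510501 and Sfn at chr4:133600556-133602168, so that 3 of the 8 lie on chromosome 4.

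The promoters below belong to the 3 gene starts that had an H3K27ac peak within 1 kb in the list at 4 h and none in the list at 0 h, and to Gadd45a, which had a peak in both lists. Each run covers 250 bases before to 50 bases from the start on, 5′ to 3′ on the strand of the gene, from RefSeq on GRCm38.p6. Capitals mark exact matches to the p53 decamer, 1 unit of the pair that forms a p53 response element.
Cdkn1a first start, chr17:29090729-29091028, plus strand: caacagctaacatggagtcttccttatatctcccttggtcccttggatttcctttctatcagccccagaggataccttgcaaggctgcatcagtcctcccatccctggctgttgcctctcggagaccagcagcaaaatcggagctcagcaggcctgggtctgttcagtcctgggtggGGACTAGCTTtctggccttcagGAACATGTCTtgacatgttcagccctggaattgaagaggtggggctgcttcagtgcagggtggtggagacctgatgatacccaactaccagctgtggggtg
Plk2, chr13:110394794-110395093, plus strand: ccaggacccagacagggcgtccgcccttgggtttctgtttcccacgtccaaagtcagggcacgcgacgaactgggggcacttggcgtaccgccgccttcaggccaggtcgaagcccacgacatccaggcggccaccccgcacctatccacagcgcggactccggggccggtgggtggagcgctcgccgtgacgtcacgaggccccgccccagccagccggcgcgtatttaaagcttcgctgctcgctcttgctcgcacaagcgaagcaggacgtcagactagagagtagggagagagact
Sesn1 downstream start, chr10:41887189-41887488, plus strand: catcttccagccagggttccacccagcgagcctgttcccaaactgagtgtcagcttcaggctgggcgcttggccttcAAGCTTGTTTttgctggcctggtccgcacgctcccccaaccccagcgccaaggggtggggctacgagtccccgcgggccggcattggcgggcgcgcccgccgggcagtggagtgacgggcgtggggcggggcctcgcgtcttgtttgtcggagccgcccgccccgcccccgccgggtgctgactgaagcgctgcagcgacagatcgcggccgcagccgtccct
Gadd45a, chr6:67037358-67037657, minus strand: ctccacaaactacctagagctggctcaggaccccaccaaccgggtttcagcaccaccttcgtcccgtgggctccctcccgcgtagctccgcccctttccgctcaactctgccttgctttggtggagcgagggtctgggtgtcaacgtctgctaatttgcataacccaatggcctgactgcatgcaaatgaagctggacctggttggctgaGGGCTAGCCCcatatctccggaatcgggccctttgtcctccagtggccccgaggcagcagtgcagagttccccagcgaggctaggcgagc
The promoter of the first Cdkn1a start held 2 exact decamers, whose first bases lay at -73 and -51 from that start. The promoter of the second Cdkn1a start, at 29093769, held none. Sesn1 held 1 decamer at -173 from its downstream start, and Gadd45a held 1 at -40. Plk2 held none in this window. All 8 genes were matched in RefSeq, with 10 promoters, since Cdkn1a and Sesn1 have more than 1 start. An exact decamer occurred in 3 of these 10 promoters, against 8.36% of the 32851 promoters in the table (2745). The pattern of the decamer is its own reverse complement, so 1 search covers both strands. A match describes letters in the window and shows no binding.

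H3K27ac differed between the lists at the first start of Cdkn1a and at the start of Plk2. A peak within 1 kb of a start was listed at 4 h for 6 of the 8 genes, against 73.8% of the 8392 expressed genes with an annotated start. At 0 h it was listed for 4 of the 8 genes, against 72.8% of those genes. Cdkn1a and Plk2 were the genes with a peak in the list at 4 h alone, a state found for 4.90% of expressed genes (411), and none of the 8 had one at 0 h alone, found for 3.86% (324). The lists hold positions only and differ in length, with 20449 peaks at 4 h and 16239 at 0 h, and they carry no replicate, so no test was made.

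At Cdkn1a the peak at 4 h ran from 29090402 to 29092289 on chromosome 17 (1888 bp), across the first start at 29090979 and the 2 decamers. The nearest peak at 0 h lay 11145 bp away. The second start of Cdkn1a, at 29093769, had no peak within 1 kb in either list, with the nearest at 4 h 1480 bp away. At Plk2 the peak at 4 h ran from 110394842 to 110395645 on chromosome 13 (804 bp), across the start at 110395044. The nearest peak at 0 h lay 207739 bp away, and no peak was centred within 50 kb. Sesn1 had a peak at its downstream start at 4 h (41886633 to 41887930 on chromosome 10, 1298 bp), while the nearest at 0 h was 55111 bp away. Its upstream start lay within 1 kb of a peak at both times. Btg2 had a peak of 2203 bp at 4 h (134078538 to 134080740 on chromosome 1), against one of 600 bp at 0 h that ended 62 bp inside the gene. Gadd45a and Sesn2 had a peak at their start in both lists. Plk3 and Sfn had none within 1 kb in either. For Plk3 the nearest lay 3691 bp away at 4 h and 2334 bp away at 0 h, and for Sfn 1812 bp at 4 h and 1630 bp at 0 h. All coordinates are those of the peak lists and of GRCm38 (mm10). Which of 2 sets of untreated H3K27ac samples gave the list at 0 h is not stated in the sources.

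**Figure D1:**
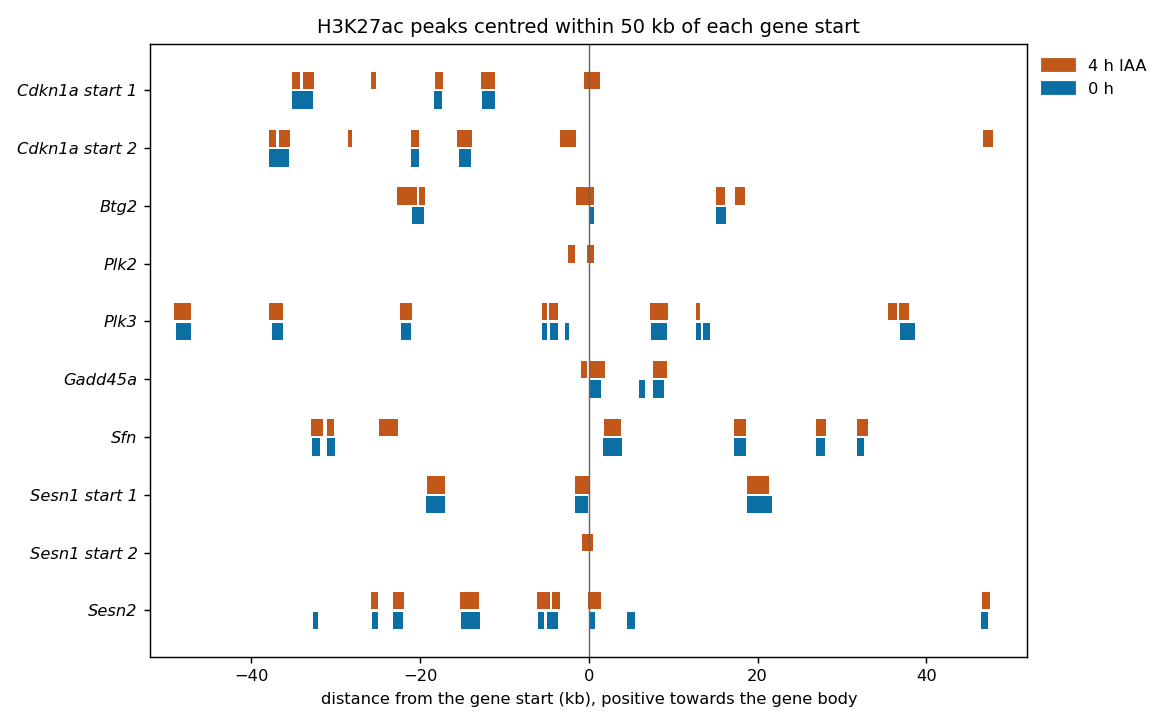
H3K27ac peaks at 4 h of IAA and at 0 h around the starts of the 8 genes, with distance from each start in kb on the x axis and 1 line for each start. The first start of Cdkn1a, the start of Plk2 and the downstream start of Sesn1 have a peak at 4 h and none at 0 h.

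In total RNA of ESCs, Btg2, Plk2, Cdkn1a and Sesn2 rose after 4 h of IAA and Plk3 fell, while Gadd45a, Sfn and Sesn1 did not pass the test. At 20 h Sfn and Plk3 were also above their untreated level, and Gadd45a and Sesn1 were below it. Values are FPKM, fragments per kilobase of transcript scaled to library size, and changes are log2 differences of FPKM + 1 with their standard error, which understate the change of low genes. Calls rest on limma with p-values adjusted over all tested genes, at 0.05. In these bulk samples a change in the share of cells and a change in RNA per cell cannot be told apart.

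The inhibitor Cdkn1a was the lowest of the 8 genes in total RNA of untreated ESCs. It had 0.980 and 1.18 FPKM at 0 h, 6.53 and 4.43 FPKM at 4 h, and 9.69 and 9.80 FPKM at 20 h. The libraries of the 3 times did not overlap, and Cdkn1a changed by 1.62 ± 0.17 at 4 h (adjusted p = 0.00694) and by 2.37 ± 0.17 at 20 h (adjusted p = 0.000102). The call at 4 h ended when no filter on low genes was used (adjusted p = 0.0527). Btg2 had 6.47 and 4.65 FPKM at 0 h, 36.0 and 39.0 FPKM at 4 h, and 37.3 and 35.2 FPKM at 20 h. Its libraries at 4 and 20 h overlapped, and it rose by 2.56 ± 0.16 at 4 h (adjusted p = 0.00119) and by 2.52 ± 0.16 at 20 h (adjusted p = 8.33e-05).

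The kinase Plk2 had 4.82 and 3.88 FPKM at 0 h, 29.9 and 32.8 FPKM at 4 h, and 46.9 and 43.3 FPKM at 20 h. Each time lay above the one before it, and Plk2 rose by 2.60 ± 0.13 at 4 h (adjusted p = 0.000675) and by 3.11 ± 0.13 at 20 h (adjusted p = 7.69e-05). Its relative Plk3 did the opposite at 4 h. Plk3 had 14.7 and 11.8 FPKM at 0 h, 6.93 and 6.995 FPKM at 4 h, and 18.7 and 17.9 FPKM at 20 h. It fell by 0.83 at 4 h (SE 0.13, adjusted p = 0.0169) and was higher than at 0 h by 0.44 ± 0.13 at 20 h (adjusted p = 0.0194). The call of Plk3 at 4 h ended with rescaled libraries (-0.48, adjusted p = 0.0506) and with no filter on low genes (adjusted p = 0.0557). Plk3 overlaps the gene Tctex1d4 by 84 bp, and strand use in counting is not given, so reads there cannot be told apart.

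Sesn2 rose at 4 h, and Sesn1 fell by 20 h. Sesn2 had 15.4 and 14.9 FPKM at 0 h, 29.9 and 34.9 FPKM at 4 h, and 21.1 and 20.9 FPKM at 20 h, with changes from 0 h of 1.05 ± 0.12 at 4 h (adjusted p = 0.00898) and 0.45 ± 0.12 at 20 h (adjusted p = 0.0126). Its highest libraries were those at 4 h. Sesn1 had 4.25 and 4.04 FPKM at 0 h, 2.86 and 3.50 FPKM at 4 h, and 0.782 and 1.11 FPKM at 20 h, and fell by 1.41 at 20 h (SE 0.15, adjusted p = 0.000246). At 4 h its change of -0.30 did not pass the test (adjusted p = 0.143).

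Gadd45a, the highest of the 8 genes in total RNA of untreated ESCs, had 43.5 and 38.2 FPKM at 0 h, 28.7 and 33.6 FPKM at 4 h, and 16.6 and 16.8 FPKM at 20 h. It fell by 1.24 at 20 h (SE 0.13, adjusted p = 0.000261), and its change of -0.38 at 4 h did not pass the test (adjusted p = 0.0687). Gadd45a overlaps the long noncoding gene E230016M11Rik by 809 bp, and reads of the pair cannot be told apart without strand. Sfn had 31.9 and 31.7 FPKM at 0 h, 27.3 and 32.0 FPKM at 4 h, and 113 and 107 FPKM at 20 h. Its libraries at 4 and 0 h overlapped (-0.10, adjusted p = 0.528), and it rose by 1.76 ± 0.12 at 20 h (adjusted p = 9.82e-05). In these libraries the summed level of 6 trophoblast marker genes was, like that of Sfn, highest at 20 h. It was 12.5 to 13.0 FPKM at 0 h, 9.59 to 9.62 FPKM at 4 h and 77.2 to 77.7 FPKM at 20 h. Of the 6 markers, 4 were at 1 FPKM or more at 20 h, mainly the keratins Krt18 (49.9 FPKM) and Krt8 (20.7 FPKM), while Elf5 was listed at 0. In RNPmesh the 6 markers went the other way, with sums of 2.92 to 3.10 FPKM at 0 h and 1.13 to 1.18 FPKM at 12 h. Sfn there averaged 17.3 FPKM at 0 h and 24.5 FPKM at 12 h. Their part in the Sfn result was not tested.

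**Figure D2:**
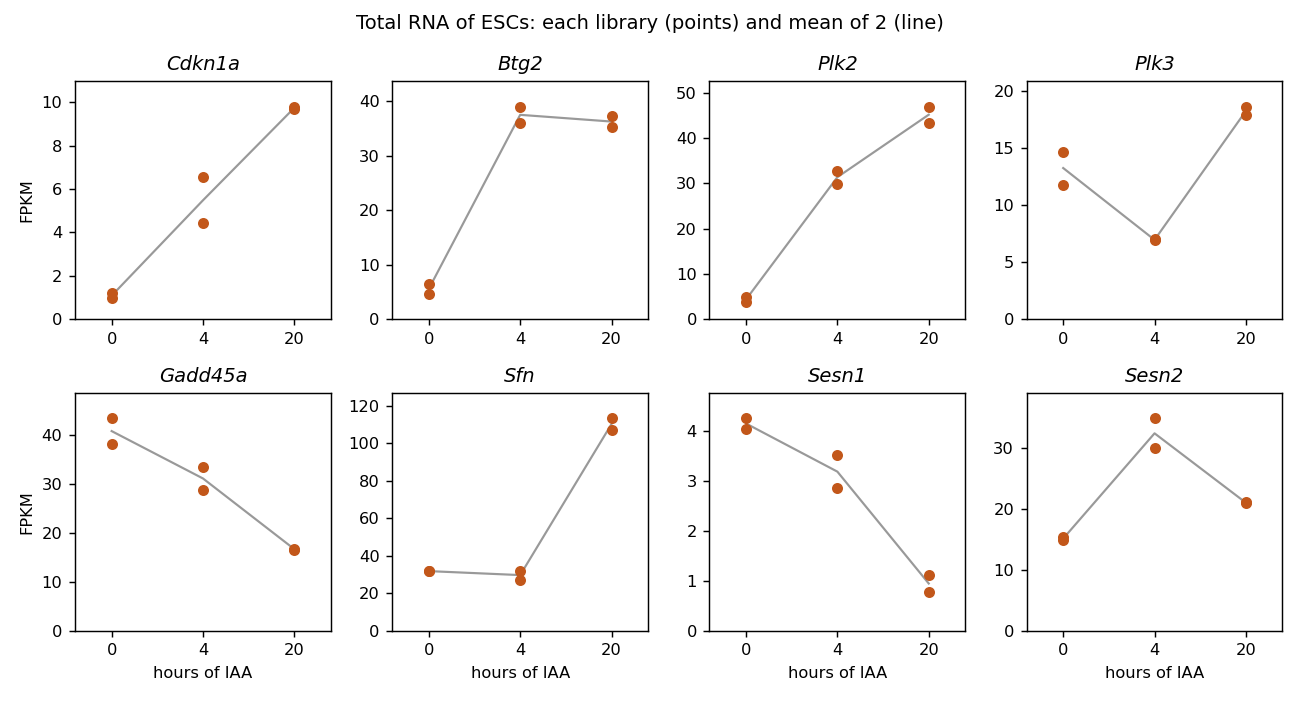
FPKM of each gene in total RNA of ESCs against hours of IAA (0, 4 and 20 h), with each library as a point and the mean of 2 as a line; each panel has its own axis from 0. Cdkn1a, Btg2 and Plk2 lie above their 0 h libraries at both later times, Plk3 dips at 4 h, Sfn is high at 20 h alone, and Gadd45a and Sesn1 are lowest at 20 h.

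At 4 h, 4 of the 8 genes rose and 1 fell, against 25.6% of 12461 tested genes called in either direction. Their median change was 0.47, against -0.31 over all tested genes. At 20 h, 6 rose and 2 fell, where 77.3% of all genes were called, so the number of calls is near the background, and their median change was 1.10 against -0.76 over all genes. The 20 h libraries were set directly against those at 4 h too. Cdkn1a (0.75 ± 0.17), Plk2 (0.51 ± 0.13), Plk3 (1.28 ± 0.13) and Sfn (1.86 ± 0.12) were higher at 20 h than at 4 h, and Gadd45a (-0.86 ± 0.13), Sesn1 (-1.10 ± 0.15) and Sesn2 (-0.60 ± 0.12) were lower. These 7 calls stand against 56.4% of all genes, and Btg2 did not pass the test (-0.05, adjusted p = 0.819). After each library was rescaled so that its typical gene matched the table's mean, the median change of all genes was 0.01 at 4 h and -0.01 at 20 h. Relative to that shift Gadd45a (-0.32) and Sesn1 (-0.80) were still called lower at 20 h than at 0 h. Between 20 and 4 h, rescaling ended the call of Sesn2 (-0.04, adjusted p = 0.552) and turned Btg2 to 0.52 (adjusted p = 0.0133).

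Some of these calls ended when a library was left out. At 4 h Plk3 was not called without 0 h replicate 1 (-0.69) or without 4 h replicate 1 (-0.83), and Sesn2 was not called without 0 h replicate 1 (1.07) or 0 h replicate 2 (1.02). Gadd45a was called lower at 4 h without 4 h replicate 2 (-0.49). At 20 h Sesn2 was not called without any 1 of the 4 libraries (0.43 to 0.47), and Plk3 was not called without 0 h replicate 2 (0.30), 20 h replicate 1 (0.41) or 20 h replicate 2 (0.47). For 20 against 4 h, Plk2 was not called without 4 h replicate 1 (0.45), 20 h replicate 1 (0.46) or 20 h replicate 2 (0.57). The calls of Cdkn1a, Btg2 and Plk2 against 0 h were kept without each of these libraries.

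In nascent RNA, Plk2 rose within 4 h, and Btg2, Cdkn1a and Sesn2 had higher values at 4 h than at 0 h in every library. Values are RPKM over the whole annotated gene, introns included, so they are not on the scale of the FPKM above. Plk2 had 0.539 and 0.837 RPKM at 0 h, 0.326 and 1.03 RPKM at 1 h, 1.71 and 3.19 RPKM at 2 h, and 14.0 and 15.9 RPKM at 4 h. Its libraries at 0 and 1 h overlapped, and those at 2 and 4 h lay above them. The change at 4 h was 3.24 ± 0.30 (adjusted p = 0.0238). This call ended without any 1 of the 4 libraries of that contrast (3.11 to 3.37) and with replicate number as a block (adjusted p = 0.0536).

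Btg2 had 1.68 and 0.945 RPKM at 0 h, 3.94 and 1.46 RPKM at 1 h, 6.22 and 3.93 RPKM at 2 h, and 13.0 and 11.03 RPKM at 4 h. Its libraries at 2 and 4 h all lay above those at 0 h, and the change at 4 h was 2.51 ± 0.39 (adjusted p = 0.05, not called). Rescaling made it a call (2.57, adjusted p = 0.0463). Cdkn1a had 0.378 and 0.652 RPKM at 0 h, 0.323 and 1.11 RPKM at 1 h, 0.944 and 2.11 RPKM at 2 h, and 5.88 and 4.37 RPKM at 4 h, with a change of 2.01 ± 0.33 at 4 h (adjusted p = 0.0569). It too was above both untreated libraries from 2 h on. Sesn2 had 3.02 and 2.43 RPKM at 0 h, 3.30 and 3.15 RPKM at 1 h, 5.12 and 5.20 RPKM at 2 h, and 4.85 and 6.23 RPKM at 4 h, with a change of 0.81 ± 0.15 at 4 h (adjusted p = 0.0713).

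The other 4 genes changed less at 4 h. Gadd45a had the highest nascent level at 0 h (8.28 and 10.0 RPKM) and lay at 12.2 and 14.8 RPKM at 4 h (0.51, adjusted p = 0.204). Plk3 stood at 0.282 and 1.38 RPKM at 4 h, against 1.11 and 0.774 RPKM at 0 h. Sesn1 was under 1 RPKM in every library and was not tested, although its long gene gave 140 to 277 fragments per library. Sfn had no fragment in either library at 0 h, 15 and 8 at 1 h, 10 and 22 at 2 h, and 1 and 0 at 4 h. At 4 h neither its nascent nor its total RNA passed the test, and total RNA was not sampled at 1 or 2 h.

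Of the 7 tested genes, none was called at 1 h, where 0.0451% of 8876 genes were called, and none at 2 h, where 0.0113% were. Unadjusted p was under 0.05 for 487 genes at 1 h and 719 at 2 h. At 4 h 1 of 7 was called, against 1.9% of all genes. Whole fragments could be approximated from the RPKM steps, with an implied 2677777 to 5653291 fragments per library. Of nonzero values under 50 fragments, at least 93.5% in each library lay within 0.05 of a whole number. The step of 2 h replicate 1 was divided by 3 to reach this, and all values were rounded. limma-voom on these fragments called 535 genes higher and 445 lower at 4 h, and Plk2 (adjusted p = 2.07e-06), Cdkn1a (adjusted p = 0.000121), Btg2 (adjusted p = 0.000637) and Sesn2 (adjusted p = 0.00289) were among the higher ones. It called Sesn2 at 2 h as well (0.91, adjusted p = 0.031), with 94 genes higher and 40 lower in all, and none of the 8 at 1 h.

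The same 4 genes rose at 4 h in every cell fraction. In chrRNP Btg2 had 23.8 and 26.9 FPKM at 4 h, against 2.48 and 4.07 FPKM at 0 h (2.65 ± 0.17, adjusted p = 5.62e-06). In the cytosol Btg2 had 52.8 and 59.6 FPKM at 4 h, against 7.47 and 8.36 FPKM at 0 h (2.68 ± 0.17, adjusted p = 8.06e-06). The 2 fractions thus differed in level and showed changes of like size. Plk2 in chrRNP had 15.8 and 21.2 FPKM at 4 h, against 1.26 and 2.09 FPKM at 0 h (2.87 ± 0.18). Plk2 in the cytosol had 42.8 and 46.4 FPKM at 4 h, against 5.82 and 4.91 FPKM at 0 h (2.84 ± 0.18).

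Cdkn1a in chrRNP had 2.62 and 3.39 FPKM at 4 h, against 0.537 and 0.676 FPKM at 0 h (1.31 ± 0.13). Cdkn1a in the cytosol had 7.29 and 7.27 FPKM at 4 h, against 1.40 and 1.91 FPKM at 0 h (1.65 ± 0.13). Sesn2 rose by 1.48 ± 0.18 in chrRNP, 1.01 ± 0.18 in np, 1.25 ± 0.18 in cyto and 1.06 ± 0.18 in wcl. In none of these 4 genes and 4 fractions did the libraries at 4 and 0 h overlap. Plk3 fell in np, with 5.71 and 6.29 FPKM at 4 h against 12.4 and 13.3 FPKM at 0 h (-0.98 ± 0.14, adjusted p = 0.00073), and in wcl (-0.92 ± 0.14, adjusted p = 0.00195). In cyto (-0.47 ± 0.14, adjusted p = 0.0889) and chrRNP (-0.23 ± 0.14, adjusted p = 0.33) it did not pass the test. Rescaled libraries gave calls for Plk3 in cyto (-0.53, adjusted p = 0.0107) and in chrRNP (-0.55, adjusted p = 0.00435), and the replicate block gave one in cyto (adjusted p = 0.0483).

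Counts of calls at 4 h were 4 higher and none lower in chrRNP, against 8.82% of 14069 genes called, 4 higher and 1 lower in np (30.8% of genes), 4 higher and none lower in cyto (6.45%), and 4 higher and 1 lower in wcl (19.2%). The difference between fractions was tested itself. Between chrRNP and cyto no difference of changes was called for the 8 genes, where 0.135% of genes were called and 1233 had an unadjusted p under 0.05. The differences, chrRNP minus cyto, ran from -0.34 for Cdkn1a (95% interval -0.73 to 0.06) to 0.37 for Sfn (95% interval -0.55 to 1.28), with Plk2 at 0.02 (95% interval -0.53 to 0.58). Between np and cyto none of the 8 was called either, where 1.0% of genes were called and 3079 had an unadjusted p under 0.05. For Plk3 (-0.51, 95% interval -0.96 to -0.06, adjusted p = 0.185) and Cdkn1a (-0.50, 95% interval -0.90 to -0.11, adjusted p = 0.151) the unadjusted interval left out 0, and after rescaling these differences were -0.21 and -0.15. Without chrRNP 0 h replicate 2, Sfn (1.13) and Gadd45a (0.71) were called higher in chrRNP and the change of Sfn differed from that in cyto (0.96, adjusted p = 0.0265). Leaving that library out moved calls across the genome: 5377 of 14002 genes were then called higher in chrRNP, against 1119 of 14069 with it, and 2593 had a called positive difference of changes between chrRNP and cyto, against 13 with it. That library held 10.2 FPKM of Sfn and 18.0 FPKM of Gadd45a, while the other chrRNP library at 0 h held 3.99 and 9.41 FPKM.

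At 0 h all 8 genes were lower in chrRNP than in the cytosol, by 0.72 (Cdkn1a) to 2.79 (Sfn) on the log2 scale, where 77.7% of genes were called in either direction and the median gene was at -0.88. Sfn averaged 7.12 ± 4.42 FPKM in chrRNP and 51.0 ± 1.49 FPKM in cyto (SD, n = 2 each). After rescaling, 4 of the 8 were lower: Sfn (-1.48), Gadd45a (-0.56), Sesn2 (-0.49) and Plk2 (-0.22), while Cdkn1a stood at 0.00 and Btg2 at 0.11. Neither Plk3 (-0.14) nor Sesn1 (-0.20) was then called.

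**Figure D3:**
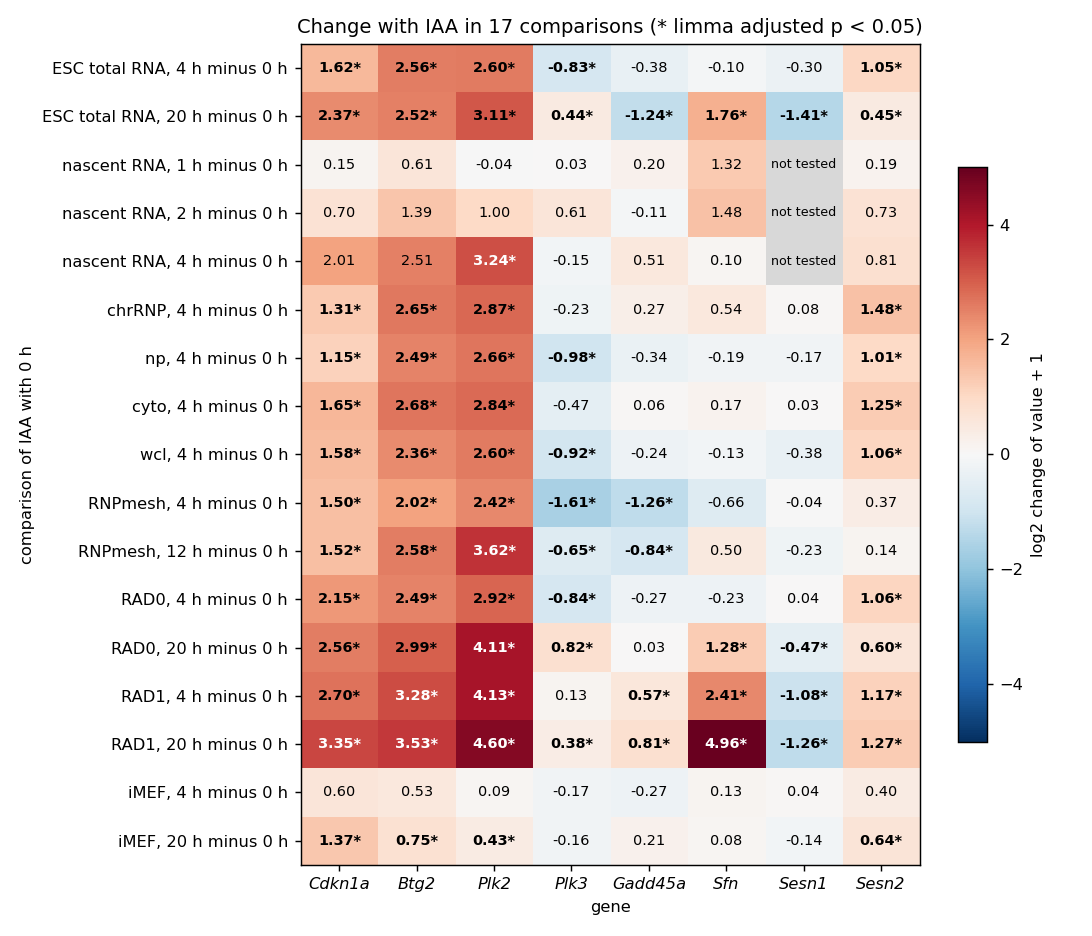
Log2 changes of value + 1 with IAA for the 8 genes (columns) in 17 comparisons with the 0 h group of the same table and fraction (rows of the map), with an asterisk where limma's adjusted p is under 0.05. Cdkn1a, Btg2 and Plk2 are positive at 4 h and later in every table, with Plk2 up to 4.60, and Sesn1 is not called higher in any.

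In polyadenylated RNA of the RNPmesh remnant, Plk2, Btg2 and Cdkn1a rose at both times, and Plk3 and Gadd45a fell. Plk2 had 2.96 and 3.37 FPKM at 0 h, 20.5 and 22.0 FPKM at 4 h, and 50.2 and 50.3 FPKM at 12 h, and rose by 2.42 ± 0.19 at 4 h (adjusted p = 0.000854) and 3.62 ± 0.19 at 12 h (adjusted p = 2.74e-05). Btg2 had 9.39 and 10.0 FPKM at 0 h, 39.7 and 45.0 FPKM at 4 h, and 57.5 and 68.6 FPKM at 12 h. Cdkn1a had 5.52 and 8.69 FPKM at 0 h, 19.5 and 23.5 FPKM at 4 h, and 20.8 and 22.7 FPKM at 12 h. Plk2 and Btg2 were thus higher at 12 h than at 4 h in each library, and the Cdkn1a libraries of these times overlapped. Gadd45a had 35.1 and 40.7 FPKM at 0 h, 15.0 and 15.4 FPKM at 4 h, and 20.2 and 21.1 FPKM at 12 h, and fell by 1.26 at 4 h (SE 0.20, adjusted p = 0.00525) and 0.84 at 12 h (SE 0.20, adjusted p = 0.00753). Plk3 had 34.2 and 47.0 FPKM at 0 h, 11.8 and 13.2 FPKM at 4 h, and 25.8 and 24.7 FPKM at 12 h. It fell by 1.61 at 4 h (SE 0.22, adjusted p = 0.00412) and by 0.65 at 12 h (SE 0.22, adjusted p = 0.0372).

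Sesn2 was not called in RNPmesh at 4 h (0.37, adjusted p = 0.234) or at 12 h (0.14, adjusted p = 0.617), and neither were Sfn and Sesn1. Calls were 3 higher and 2 lower at 4 h, against 24.6% of 12725 genes, and 3 higher and 2 lower at 12 h, against 48.0%. In the untreated library replicate 2, the small nucleolar RNA Snord49b took 42.2% of the summed FPKM, and in 4 h replicate 1 Mir6236 took 19.3%. FPKM is scaled by length, so these are not shares of fragments. Without untreated replicate 2, Plk3 was not called at 12 h (-0.42) and Sfn was called higher (0.79). Plk3 was not called at 12 h either without 12 h replicate 1 (-0.68), without 12 h replicate 2 (-0.62), or after rescaling (-0.38, adjusted p = 0.19), nor with no filter (adjusted p = 0.0607), while rescaling called Sfn higher (0.77, adjusted p = 0.0307). At 4 h Cdkn1a was not called without 4 h replicate 1 (1.63) or replicate 2 (1.37), Plk3 (-1.53) and Gadd45a (-1.24) were not called without 4 h replicate 1, and Sfn was called lower without 0 h replicate 1 (-0.94).

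On sucrose gradients of nuclear lysate, Plk2, Btg2 and Cdkn1a had the largest ratios between the times among the 8 genes. The summed FPKM over the 8 fractions was 267.0 at 12 h against 47.2 at 0 h for Plk2 (5.65-fold), 403.5 at 12 h against 148.9 at 0 h for Btg2 (2.71-fold), and 164.9 at 12 h against 81.7 at 0 h for Cdkn1a (2.02-fold). The other 5 lay between 0.900-fold (Sesn1) and 1.49-fold (Sfn). Past 2-fold were 3 of 8 genes, against 5.55% of the 11710 genes with enough signal, whose median ratio was 0.895. With each library scaled to the same total, Cdkn1a stood at 1.75-fold, Btg2 at 2.44-fold and Plk2 at 4.93-fold. There is 1 library per fraction and time, so no test was made. FPKM is scaled to library size, and the RNA mass of each fraction was not used. The sum thus counts each fraction alike and is not the amount of RNA in the gradient.

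All 8 genes had a higher mean fraction number, weighted by FPKM, at 12 h than at 0 h, where higher numbers lie deeper. This mean counts each fraction alike whatever RNA it held, so it is not the distribution of the RNA over the gradient. The mean fraction of Sfn was 4.58 at 12 h and 3.92 at 0 h, a shift of 0.65, and that of Gadd45a was 5.18 at 12 h and 4.68 at 0 h, a shift of 0.50. Sesn1 shifted by 0.05, and by -0.01 with equal totals. The median gene shifted by 0.44 and 94.7% of genes shifted upward, so the direction is shared with the bulk of genes. Plk2 peaked in F6 at 12 h (49.95 FPKM), against F5 at 0 h (8.83 FPKM). Btg2 peaked in F6 at both times, with 85.6 FPKM at 12 h and 34.9 FPKM at 0 h.

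**Figure D4:**
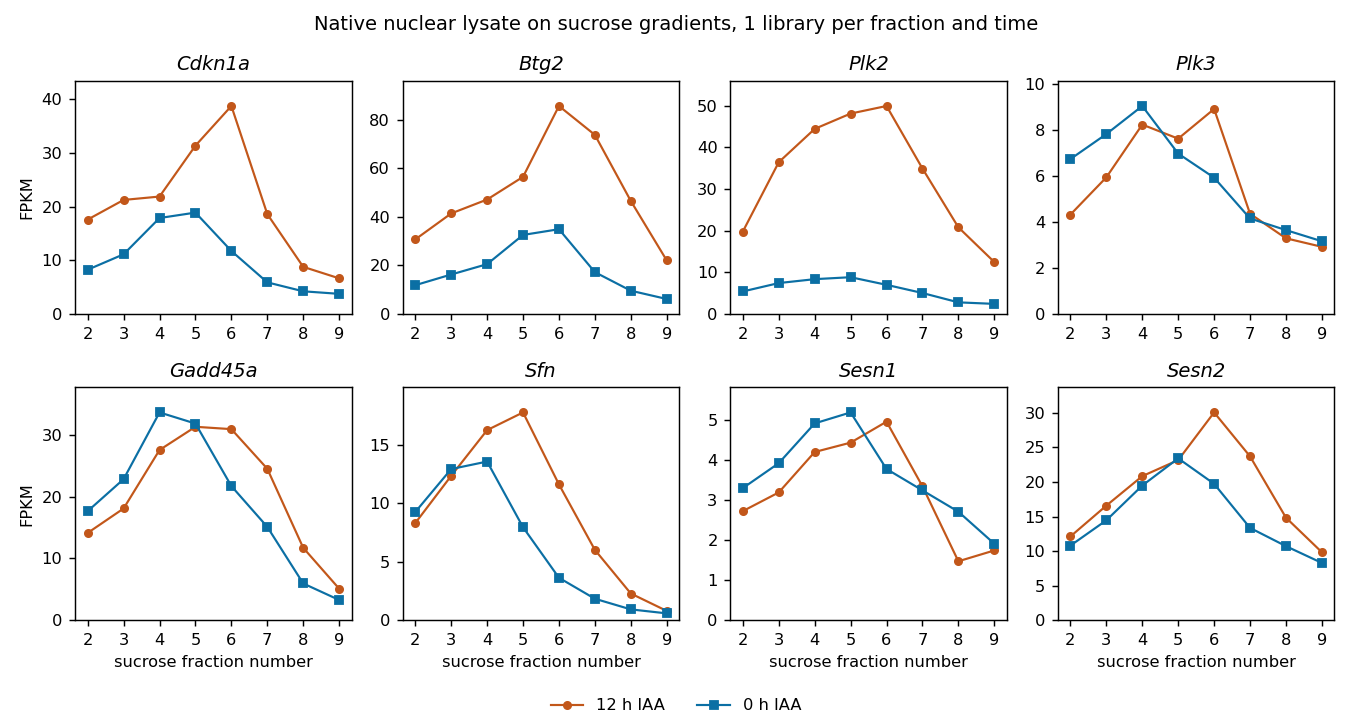
FPKM of each gene in sucrose fractions F2 to F9 at 12 h (circles) and 0 h (squares) of IAA, 1 library per point, each panel with its own axis from 0. The 12 h line of Cdkn1a, Btg2 and Plk2 lies above the 0 h line in every fraction, and the lines of Sesn1 and Plk3 cross.

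For most of the 8 genes the change with IAA in retinoic acid cells (RAD1) differed from that in cells without it (RAD0). The comparison asked how the change with IAA in ESCs exposed to retinoic acid (RAD1) differed from that in cells without retinoic acid (RAD0). Lack of LIF is described for RAD1 only, so its part and that of retinoic acid cannot be told apart. Every RAD1 group is labelled with 24 h of retinoic acid, the 20 h IAA group included. IAA may thus have overlapped retinoic acid, and the 0 h group may not be the state that IAA met. A change of level with IAA and a changed response to retinoic acid cannot be told apart in RAD1. The labelled state was visible in the data: 6 retinoic acid response genes summed to 796.5 to 803.2 FPKM in RAD1 and 5.89 to 8.63 FPKM in RAD0 at 0 h. In RAD1 this sum was lower after IAA, at 282.8 to 292.4 FPKM at 4 h and 148.6 to 163.4 FPKM at 20 h, as was that of 5 endoderm markers, which was 21.1 to 21.4 FPKM at 0 h, 6.72 to 7.09 FPKM at 4 h and 4.75 to 4.90 FPKM at 20 h. The sum of 4 neural markers was higher after IAA in both cell states, with 11.9 to 12.3 FPKM at 0 h, 45.0 to 45.3 FPKM at 4 h and 47.1 to 53.5 FPKM at 20 h in RAD1 and with 14.0 to 14.3, 26.3 to 29.6 and 58.7 to 66.0 FPKM in RAD0. It was higher too in RNPmesh, with 8.81 to 8.82 FPKM at 0 h and 38.0 to 41.4 FPKM at 12 h; in nascent RNA it reached 13.6 to 17.4 RPKM at 4 h, with no more than 2.15 RPKM at 0 h. Neurod1 made up most of that sum after IAA, at 37.9 FPKM in RAD1 and 60.3 FPKM in RAD0 at 20 h, where Pax6 stood at 0.737 and 0.317 FPKM. The part of these genes in the results was not tested. Trp53, which encodes p53, averaged 86.5 FPKM at 0 h, 131.6 FPKM at 4 h and 156.7 FPKM at 20 h in RAD1, and was called higher at both times (0.60 and 0.85). In RAD0 it averaged 151.2, 142.9 and 161.6 FPKM at these times and was not called.

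Plk2 in RAD1 had 5.36 and 5.70 FPKM at 0 h, 114 and 113 FPKM at 4 h, and 158 and 157 FPKM at 20 h, a change of 4.13 ± 0.05 at 4 h and 4.60 ± 0.05 at 20 h. Plk2 in RAD0 had 3.96 and 3.65 FPKM at 0 h, 35.7 and 34.8 FPKM at 4 h, and 84.5 and 79.6 FPKM at 20 h, a change of 2.92 ± 0.05 at 4 h and 4.11 ± 0.05 at 20 h. The changes differed by 1.22 ± 0.08 at 4 h (adjusted p = 3.15e-05) and by 0.49 ± 0.08 at 20 h (adjusted p = 0.00235), so the excess in RAD1 was larger at 4 h. Btg2 in RAD1 had 8.22 and 8.38 FPKM at 0 h, 91.1 and 87.6 FPKM at 4 h, and 109 and 103 FPKM at 20 h. Btg2 in RAD0 had 9.94 and 9.56 FPKM at 0 h, 56.9 and 62.3 FPKM at 4 h, and 84.4 and 84.5 FPKM at 20 h, and its changes were larger in RAD1 by 0.79 ± 0.08 at 4 h (adjusted p = 0.000281) and 0.54 ± 0.08 at 20 h (adjusted p = 0.00191).

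Cdkn1a in RAD1 had 9.12 and 8.09 FPKM at 0 h, 54.5 and 68.8 FPKM at 4 h, and 100 and 93.2 FPKM at 20 h. Cdkn1a in RAD0 had 5.59 and 4.62 FPKM at 0 h, 25.1 and 27.1 FPKM at 4 h, and 37.5 and 32.6 FPKM at 20 h. It was higher in RAD1 at each time, and its change was larger there by 0.78 ± 0.18 at 20 h (adjusted p = 0.0142). At 4 h the difference of 0.54 ± 0.18 did not pass the test (adjusted p = 0.0556).

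Sfn had the largest difference of the 8 genes. In RAD1 Sfn had 2.30 and 2.85 FPKM at 0 h, 17.1 and 18.8 FPKM at 4 h, and 113 and 106 FPKM at 20 h, a rise of 2.41 ± 0.10 at 4 h (adjusted p = 6.51e-07) and 4.96 ± 0.10 at 20 h (adjusted p = 8.46e-09). In RAD0 Sfn had 21.5 and 25.1 FPKM at 0 h, 18.6 and 20.6 FPKM at 4 h, and 60.1 and 55.7 FPKM at 20 h, with -0.23 at 4 h (adjusted p = 0.152) and a rise of 1.28 ± 0.10 at 20 h (adjusted p = 1.68e-05). Sfn was thus far lower in RAD1 than in RAD0 in the 0 h groups and higher in the 20 h groups. The changes differed by 2.64 ± 0.14 at 4 h (adjusted p = 1.61e-05) and 3.68 ± 0.14 at 20 h (adjusted p = 4.76e-06). The 6 trophoblast markers summed to 10.5 to 11.2 FPKM at 0 h, 9.32 to 9.83 FPKM at 4 h and 55.8 to 56.3 FPKM at 20 h in RAD1, and to 2.84 to 3.21, 2.71 to 3.21 and 10.2 to 10.7 FPKM in RAD0. In RAD1 at 4 h the sum was thus lower than at 0 h, while Sfn had risen. At 20 h 4 of the 6 were at 1 FPKM or more in RAD1 and 3 of 6 in RAD0, and Elf5 was listed at 0 in each. Their part in the Sfn result was not tested.

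Gadd45a rose in RAD1, with 35.0 and 32.4 FPKM at 0 h, 49.4 and 51.5 FPKM at 4 h, and 65.4 and 55.0 FPKM at 20 h (0.57 ± 0.10 at 4 h, 0.81 ± 0.10 at 20 h). In RAD0 it was not called (-0.27 at 4 h, 0.03 at 20 h), and the changes differed by 0.83 ± 0.14 at 4 h (adjusted p = 0.00317) and 0.79 ± 0.14 at 20 h (adjusted p = 0.00434). Sesn1 fell in RAD1, where it had 14.8 and 17.7 FPKM at 0 h, 6.45 and 7.89 FPKM at 4 h, and 6.36 and 6.00 FPKM at 20 h. In RAD0 Sesn1 had 6.22 and 5.42 FPKM at 0 h, 5.68 and 6.32 FPKM at 4 h, and 4.42 and 3.44 FPKM at 20 h, so that the 2 cell states lay near each other at 4 h. Its changes differed by -1.12 ± 0.20 at 4 h (adjusted p = 0.00415) and -0.79 ± 0.20 at 20 h (adjusted p = 0.0205).

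Sesn2 rose by 1.17 ± 0.07 in RAD1 and 1.06 ± 0.07 in RAD0 at 4 h, a difference of 0.11 (95% interval -0.11 to 0.33, adjusted p = 0.441). At 20 h it rose by 1.27 ± 0.07 in RAD1 and 0.60 ± 0.07 in RAD0, which differed by 0.68 ± 0.10 (adjusted p = 0.00152). Plk3 did not pass the test in RAD1 at 4 h (47.3 and 49.3 FPKM, against 44.7 and 43.5 FPKM at 0 h) and fell in RAD0 at 4 h (13.3 and 9.83 FPKM, against 22.1 and 20.6 FPKM at 0 h, -0.84 ± 0.11, adjusted p = 0.00225), a difference of 0.97 ± 0.16 (adjusted p = 0.00292). At 20 h it rose by 0.38 ± 0.11 in RAD1 and by 0.82 ± 0.11 in RAD0, and the difference of -0.44 did not pass the test (adjusted p = 0.0757).

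**Figure D5:**
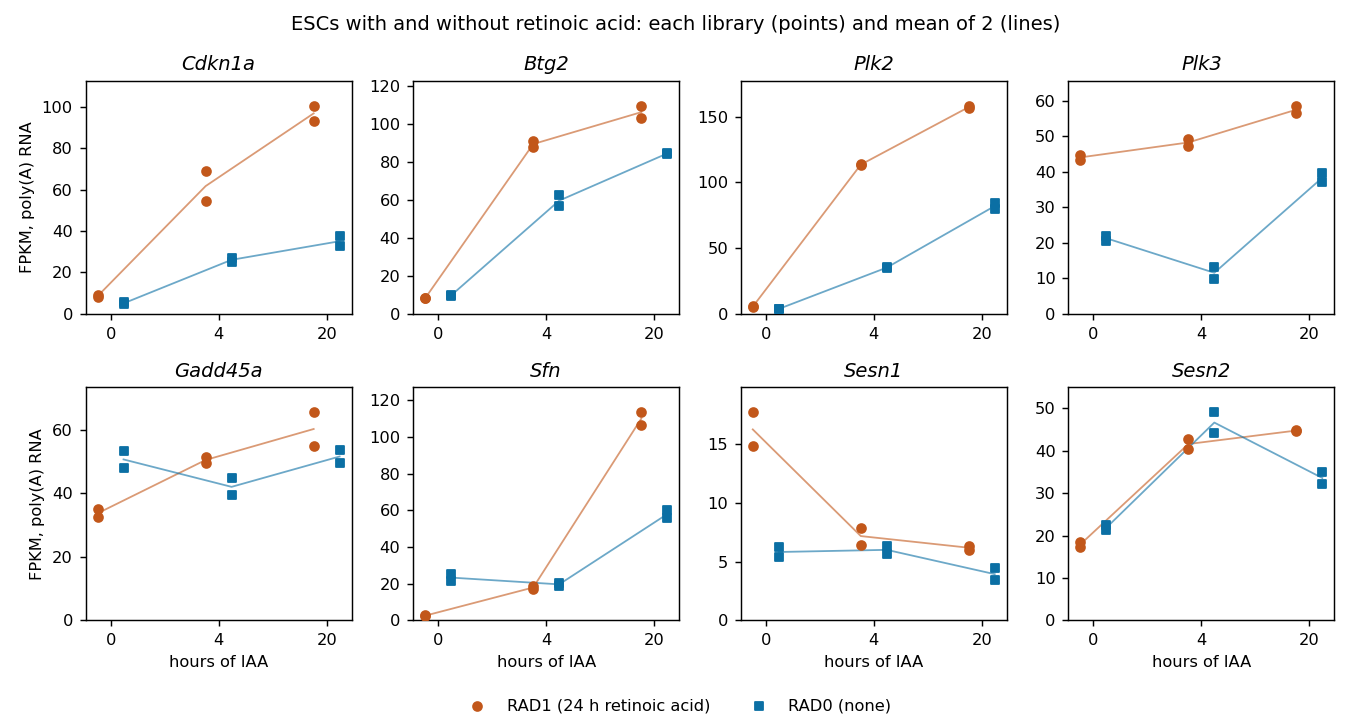
FPKM of each gene in polyadenylated RNA of RAD1 (circles) and RAD0 (squares) at 0, 4 and 20 h of IAA, with each library as a point and means of 2 as lines; each panel has its own axis from 0. RAD1 lies above RAD0 at 4 and 20 h for Cdkn1a, Btg2, Plk2 and Plk3, and Sfn in RAD1 is the lowest value of its panel at 0 h and the highest at 20 h.

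Calls in RAD1 were 6 higher and 1 lower at 4 h, against 50.8% of 15408 genes, and 7 higher and 1 lower at 20 h, against 57.0%. Calls in RAD0 were 4 higher and 1 lower at 4 h (18.8% of genes), and 6 higher and 1 lower at 20 h (51.4%). The signed difference of changes, RAD1 minus RAD0, was called positive for 5 and negative for 1 of the 8 at 4 h, against 27.2% of genes called in either direction, and positive for 6 and negative for 1 at 20 h, against 25.6%. The positive difference of Plk3 at 4 h reflects a fall in RAD0. The negative difference of Sesn1 at 4 h reflects a fall in RAD1, with 0.04 in RAD0 (not called), and that at 20 h a larger fall in RAD1. The 4 h and 20 h comparisons of a cell state share their 0 h libraries. At 0 h, without IAA, 4 genes were higher in RAD1 than in RAD0, against 46.7% of genes called in either direction: Sesn1 (1.34 ± 0.14), Plk3 (1.01 ± 0.11), Cdkn1a (0.66 ± 0.13) and Plk2 (0.44 ± 0.05). The other 4 were lower: Sfn (-2.77 ± 0.10), Gadd45a (-0.57 ± 0.10), Sesn2 (-0.27 ± 0.07) and Btg2 (-0.21 ± 0.06).

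Some of these calls changed when 1 library was left out, which leaves 1 library in a group and less power. The fall of Sesn1 in RAD0 at 20 h (-0.47, adjusted p = 0.0208) ended without 0 h replicate 1 (-0.39), without 20 h replicate 2 (-0.33) and after rescaling (-0.34, adjusted p = 0.0766). The rise of Plk3 in RAD1 at 20 h ended without any 1 of its 4 libraries (0.35 to 0.40). The difference of changes at 20 h ended for Cdkn1a without RAD1 0 h replicate 2 (0.71), and for Sesn1 without RAD0 0 h replicate 2 (-0.70), RAD0 20 h replicate 1 (-0.64), RAD1 0 h replicate 2 (-0.67) or RAD1 20 h replicate 2 (-0.75). At 4 h that of Cdkn1a was called without RAD0 0 h replicate 2 (0.66) or RAD1 4 h replicate 1 (0.71). At 0 h Btg2 was not called without RAD0 replicate 1 (-0.18) or RAD1 replicate 1 (-0.20), and Sesn2 was not called without RAD0 replicate 2 (-0.23) or RAD1 replicate 2 (-0.23).

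In iMEFs Cdkn1a, Btg2, Sesn2 and Plk2 rose by 20 h, each by less than 1.5 on the log2 scale. Cdkn1a had 27.5 and 30.4 FPKM at 0 h, 44.3 and 44.2 FPKM at 4 h, and 80.7 and 71.7 FPKM at 20 h, a rise of 1.37 ± 0.10 at 20 h (adjusted p = 0.000608). The libraries of the 3 times did not overlap. Btg2 had 78.6 and 84.8 FPKM at 0 h, 120 and 117 FPKM at 4 h, and 153 and 125 FPKM at 20 h, a rise of 0.75 ± 0.12 (adjusted p = 0.00855). Plk2 had 53.9 and 53.1 FPKM at 0 h, 59.0 and 55.1 FPKM at 4 h, and 78.5 and 66.6 FPKM at 20 h, a rise of 0.43 ± 0.11 (adjusted p = 0.0345). Sesn2 had 14.0 and 12.2 FPKM at 0 h, 16.9 and 18.1 FPKM at 4 h, and 22.6 and 19.3 FPKM at 20 h, a rise of 0.64 ± 0.12 (adjusted p = 0.0113). Untreated iMEFs thus already had more Cdkn1a, Btg2 and Plk2 than untreated ESCs, in tables that were normalized separately and not tested against each other.

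At 20 h 4 of the 8 genes rose and none fell in iMEFs, against 27.4% of 12988 genes called. At 4 h none was called, against 1.63% of genes, and 3428 genes had an unadjusted p under 0.05. Cdkn1a (0.60, adjusted p = 0.0542), Btg2 (0.53, adjusted p = 0.105) and Sesn2 (0.40, adjusted p = 0.138) had no overlap with their 0 h libraries at 4 h, and after rescaling these 3 were called (0.78, 0.72 and 0.57, with adjusted p of 0.00414, 0.00599 and 0.0441). At 20 h Plk2 was not called without 0 h replicate 1 (0.44) or 0 h replicate 2 (0.42), nor with no filter (adjusted p = 0.0711), Btg2 was not called without 0 h replicate 1 (0.70) and Sesn2 was not called without 0 h replicate 2 (0.55), while rescaling called Gadd45a higher (0.43, adjusted p = 0.005). Gadd45a (0.21), Sfn (0.08), Sesn1 (-0.14) and Plk3 (-0.16) did not pass the test at 20 h. Sfn was at 1.91 and 1.63 FPKM at 0 h, 1.16 and 3.27 FPKM at 4 h, and 1.85 and 2.01 FPKM at 20 h. All 10 fibroblast markers were at 1 FPKM or more in iMEFs, where they summed to 1855 to 1890 FPKM at 0 h, 1683 to 1708 FPKM at 4 h and 1379 to 1602 FPKM at 20 h.

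The order of the levels differed between cell states and times. In total RNA of untreated ESCs it ran Gadd45a (40.9 FPKM), Sfn (31.8), Sesn2 (15.1), Plk3 (13.3), Btg2 (5.56), Plk2 (4.34), Sesn1 (4.14) and Cdkn1a (1.08 FPKM), where the libraries of Btg2 and Plk2, and of Plk2 and Sesn1, overlapped. In polyadenylated RNA of untreated ESCs Plk2 was last, with 3.81 FPKM in RAD0 below Cdkn1a (5.11 FPKM), and 3.17 FPKM in RNPmesh, where Plk3 led (40.6 FPKM). In total RNA at 20 h it ran Sfn (110.2 FPKM), Plk2 (45.1), Btg2 (36.2), Sesn2 (21.0), Plk3 (18.3), Gadd45a (16.7), Cdkn1a (9.75) and Sesn1 (0.945 FPKM), with no overlap between neighbours. In untreated RAD1 cells Plk3 was first (44.1 FPKM), followed by Gadd45a (33.7), Sesn2 (17.9) and Sesn1 (16.2 FPKM), of which Sesn2 and Sesn1 overlapped, and Sfn was last (2.57 FPKM). In untreated iMEFs Btg2 (81.7 FPKM), Plk2 (53.5 FPKM) and Cdkn1a (28.9 FPKM) led, Sesn2 (13.1 FPKM) and Gadd45a (12.6 FPKM) overlapped, and Plk3 (2.64 FPKM) and Sfn (1.77 FPKM) were last.

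The 8 genes did not move as 1 block. Over the 17 groups given IAA in the replicated tables, the log2 changes of Btg2 and Plk2 had a Pearson correlation of 0.979, Cdkn1a with Plk2 0.868 and Cdkn1a with Btg2 0.829. Plk3 with Btg2 gave 0.03, Plk3 with Sesn2 -0.04 and Gadd45a with Plk2 0.10. Of 6270 genes measured in all these tables, the most alike to Btg2 were Plk2 (0.979), Fam212b (0.909) and Mdm2 (0.895). To Plk2 they were Btg2 (0.979), Zfp365 (0.917) and Mdm2 (0.912), and to Cdkn1a they were Adrb3 (0.928), Zfp365 (0.911) and 1700007K13Rik (0.907). Ip6k1 (0.885) was most alike to Plk3, Atg16l1 (0.955) to Gadd45a, Coq10b (0.937) to Sfn and Ppp1r14b (0.894) to Sesn2. Sesn1 was not compared, since its nascent RPKM, which is scaled by the length of this long gene, did not pass the filter. Groups of a table share their 0 h libraries, so these values describe the pattern and carry no test.

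Other genes of the p53 pathway moved in ESC total RNA as well. Over all 12461 tested genes there, 557 rose and 2639 fell at 4 h, and 1180 rose and 8451 fell at 20 h. Of 13 tested p53 feedback and repair genes, 7 rose and none fell at 4 h, and 6 rose and 4 fell at 20 h, or 9 and none after rescaling. Their median change was 0.46 at 4 h and 0.37 at 20 h, against -0.31 and -0.76 over all genes. They were led by Mdm2, the ubiquitin ligase of p53, which averaged 83.8 FPKM at 4 h and 19.5 FPKM at 0 h (2.05, adjusted p = 0.0018), and included Phlda3 (1.32 ± 0.14) and Trp53inp1 (1.25 ± 0.14) at 4 h. Of 12 tested cell death targets, 5 rose and none fell at 4 h and 7 rose and 2 fell at 20 h, or 11 and none after rescaling, with medians of 0.39 and 0.91. At 20 h Perp, a protein of cell junctions, averaged 130.6 FPKM against 24.1 FPKM at 0 h (2.39 ± 0.15, adjusted p = 8.31e-05). In nascent RNA at 4 h, 6 of 11 feedback and repair genes rose and none fell, with Mdm2 at 3.38 ± 0.13, and 3 of 11 cell death targets rose and none fell. Over all genes, 3561 of 15408 rose in RAD1 and 2842 in RAD0 at 20 h, and 677 of 12988 in iMEFs. In RAD1 at 20 h, 10 of 14 feedback and repair genes and 12 of 13 cell death targets rose, with Perp at 4.87 ± 0.04, and in RAD0 at 20 h 9 of 14 and 11 of 13 rose, with Perp at 3.25 ± 0.04. In iMEFs at 20 h, 7 of 14 and 11 of 13 rose, with Mdm2 at 1.39 ± 0.10. Trp53 RNA in ESCs averaged 74.8 FPKM at 0 h, 61.7 FPKM at 4 h and 41.6 FPKM at 20 h and fell at 20 h (-0.83, adjusted p = 0.00118).

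Most cell cycle genes that these targets act on fell in total and polyadenylated RNA at 20 h. Of 15 cyclins, cyclin-dependent kinases and their partners, none rose and 9 fell at 4 h in ESCs (median -0.55). All 15 fell at 20 h, or 13 after rescaling (median -1.71). Of all 12461 genes, 2639 fell at 4 h and 8451 at 20 h, with medians of -0.31 and -0.76. At 4 h fewer were called in other RNA: none fell of 15 in chrRNP (median 0.30) or of 13 in nascent RNA (median -0.34), and 1 of 15 fell in cyto (median -0.12). At 20 h Ccne1, a cyclin of S phase entry, averaged 13.7 FPKM against 106.5 FPKM at 0 h (-2.87 ± 0.13, adjusted p = 7.69e-05), the phosphatase Cdc25a changed by -2.35 ± 0.13 and the cyclin Ccnd3 by -2.29 ± 0.14. In iMEFs at 20 h 14 of 15 fell, led by Ccna2 (-1.94 ± 0.10), while 2880 of all 12988 genes fell. In RAD1 and in RAD0 at 20 h 13 of 15 fell in each, with Ccne1 at -2.07 in RAD1 and -1.69 in RAD0. Of all 15408 genes there, 5215 fell in RAD1 and 5081 in RAD0. After 4 h rescaling left 1 of the 9 falls in ESCs.

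Rises were few among paralogs of the 8 genes, as they were over all genes. Of all 12461 tested genes, 557 rose and 2639 fell at 4 h, and 1180 rose and 8451 fell at 20 h. Of 16 tested paralogs none rose and 7 fell at 4 h (median -0.42), and 1 rose and 10 fell at 20 h (median -0.83, against -0.76 over all genes). After rescaling none was called at 4 h, and 5 rose and 2 fell at 20 h. Rescaling gave 3423 rises and 3466 falls over all genes at 20 h. Plk1, the mitotic polo-like kinase, changed by -1.22 ± 0.12 at 20 h. Of 5 other inhibitors of cyclin-dependent kinases, none rose and 2 fell at 4 h (Cdkn1b at -0.64 and Cdkn1c at -0.55, neither after rescaling), and at 20 h Cdkn2b rose (0.73 ± 0.16) while 2 fell. Among 9 sestrin partners of the mTORC1 pathway, Ddit4, an inhibitor of that pathway and itself a stress gene, rose by 1.52 ± 0.15 at 4 h and 2.34 ± 0.15 at 20 h. It was the single rise of that list at both times, while 8 of the 9 fell at 20 h, with a median of -0.65 near the -0.76 of all genes. After rescaling 2 rose and 4 fell at 20 h. Sesn2 is also known as a target of the stress factor Atf4. Of 6 tested genes on a list of Atf4 and its targets, none rose and 1, Atf4 itself, fell at 4 h (-0.81 ± 0.13). At 20 h 1 of them rose and 5 fell, or 2 and 3 after rescaling. The part of Atf4 in the rise of Sesn2 was not tested. Of 10 immediate-early genes 1 rose and 3 fell at 4 h, or none and 2 after rescaling. At 20 h 7 of them rose and 3 fell, both before and after rescaling.

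Exosc2 RNA averaged 3.25 FPKM at 0 h, 2.41 FPKM at 4 h and 0.989 FPKM at 20 h in total RNA of ESCs. The degron acts on the protein, so RNA does not check its loss. The 8 ESC markers were all at 1 FPKM or more in ESCs and summed to 1717 to 1774 FPKM at 0 h, 1246 to 1520 FPKM at 4 h and 476.2 to 523.5 FPKM at 20 h. Their part in the changes above was not tested. Read depth per library is not given for the FPKM tables, and with 2 libraries a group the design recovered, in simulations of the 4 h contrast, 57% of seeded log2 changes of 1 in total RNA of ESCs and 92% of changes of 2. For RNPmesh these shares were 25% and 75%, for RAD0 86% and 99%, for iMEFs 80% and 97% and, at 1 h, for nascent RNA 41% and 68%. Changes were seeded only in genes above a floor of mean log2(value + 1) over the libraries. Below that floor lay Cdkn1a and Sesn1 in total RNA of ESCs and, in nascent RNA, all of the 8 but Gadd45a. So did Sesn1 in RNPmesh and Plk3 and Sfn in iMEFs, and for such genes these shares may overstate recovery.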

How the data were processed

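The values are those the authors deposited: FPKM per gene for total, fractionated, polyadenylated and gradient RNA, RPKM per gene for nascent RNA, and H3K27ac peak positions with no signal. Per the submitters' processing notes, reads were handled with TopHat2 2.0.11 and Cufflinks 2.0.2, or for nascent RNA with Trim Galore, TopHat2 and bedtools, and for H3K27ac with Bowtie2 2.2.6 and MACS2, on mm10. Spike-in RNA was added per the labels' protocols, but no source used here says whether it set the scale or whether counting used strand, so a change shared by most genes can be hidden or made by the scaling. Peaks are deposited as 1 list per time.

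Genes at 1 or more in at least 2 libraries of a table were kept, log2(value + 1) was fitted with limma 3.58.1 (R 4.3.3) over all groups of the table, with Benjamini-Hochberg adjustment over all tested genes of a contrast, with calls at 0.05. The gradient and the peaks have no replicate and no test. The fits were tested on simulated data. The alternatives tried were no filter, a pseudocount of 0.1, rescaled libraries, a replicate block, voom on whole fragments of nascent RNA, wider windows, and each library left out in turn. Same-numbered replicates showed little shared deviation (correlations of -0.14 to 0.15 over 58 pairs, 4 of them over 0.1), and libraries were fitted as unpaired. Noise of single genes could hide a pairing, so these values cannot exclude one. The members and gene lists were chosen with earlier results of these data known. Every member is named, and of each other list the genes with the smallest p among those called, up to 3 a contrast. Of 139 samples in the labels, 70 libraries entered the expression results. Figures used matplotlib 3.10.9.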

Additional observations from a re-analysis of the deposited data

Results flagged for a closer look

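The change with IAA differed between RAD1 and RAD0 cells, by limma's test of the difference itself, for 6 of the 8 genes at 4 h and 7 at 20 h. On the log2 scale, RAD1 minus RAD0, the differences at 4 h were 0.79 for Btg2, 1.22 for Plk2, 0.97 for Plk3, 0.83 for Gadd45a, 2.64 for Sfn and -1.12 for Sesn1. At 20 h they were 0.78 for Cdkn1a, 0.54 for Btg2, 0.49 for Plk2, 0.79 for Gadd45a, 3.68 for Sfn, -0.79 for Sesn1 and 0.68 for Sesn2. Sfn in RAD1 was the lowest of the 8 genes at 0 h and among the highest at 20 h, and Gadd45a was called in RAD1 and not in RAD0. Trp53 RNA rose with IAA in RAD1 and was not called in RAD0. The part of Trp53 in these differences was not tested. Retinoic acid and lack of LIF cannot be told apart in RAD1, nor can a change with IAA and a changed response to retinoic acid.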

How the results depend on the processing

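With 2 libraries a group and no depth for the FPKM tables, small changes of low genes are not resolved, and the gradient and peak lists have no replicate. Of 130 counts (called genes, genes past 2-fold or with a peak, promoters with a decamer) under settings other than leaving out a library, 122 stayed within 1.5 times their value and 8 did not. Without a filter, 3 genes were called at 4 h in total RNA of ESCs. In nascent RNA at 4 h, rescaling gave 2 calls, the replicate block 0 and voom 4, and voom gave 1 at 2 h. Rescaling left 4 lower calls between chrRNP and cyto at 0 h and gave 3 calls in iMEFs at 4 h. Allowing 1 mismatch, 6 of 10 promoters held the decamer, against 50.9% of all promoters. Rescaling turned Btg2 between 20 and 4 h to a called rise (0.52). Between chrRNP and cyto at 0 h it ended the lower calls of Cdkn1a (0.00, no difference left) and Btg2 (0.11, adjusted p = 0.29 in limma, not called). For these 3 the cause was not tested.

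Leaving out 1 library at a time, the calls ranged in ESCs from 3 to 6 at 4 h, 6 to 7 at 20 h and 6 to 7 for 20 against 4 h. They ranged from 0 to 0 in nascent RNA at all 3 times, 4 to 6 in chrRNP, 5 to 5 in np, 4 to 4 in cyto and 5 to 5 in wcl. They ranged from 8 to 8 between chrRNP and cyto at 0 h, and for differences of changes from 0 to 1 against chrRNP and 0 to 0 against np. They ranged from 2 to 6 in RNPmesh at 4 h and 4 to 5 at 12 h, 5 to 5 in RAD0 at 4 h and 6 to 7 at 20 h, and 7 to 7 in RAD1 at 4 h and at 20 h. Between RAD1 and RAD0 they ranged from 7 to 7 at 0 h, and from 6 to 7 at 4 h and 5 to 7 at 20 h for differences of changes. In iMEFs they ranged from 0 to 0 at 4 h and 2 to 4 at 20 h. The replicate block changed no call of a gene other than Plk2 in nascent RNA at 4 h (adjusted p = 0.0536) and Plk3 in cyto (adjusted p = 0.0483), in limma.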
